A study of Homo sapiens with 2 samples.

Results

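The genes described here encode the Sm and LSm proteins and other core proteins of the small nuclear ribonucleoproteins (snRNPs), together with related splicing factors of the SF3A, SF3B, PRPF and U2AF families. They were chosen by a rule on names, with earlier results of these data known. The rule asks for protein-coding genes whose symbol begins with SNRP, with LSM, SF3A, SF3B or PRPF followed by a digit, or with U2AF. The rule took 51 of 58302 genes in the table, of which 19817 are protein-coding. It leaves out core proteins named otherwise, such as SNRNP70 and SNRNP200, which are described with the related lists. The sequenced material was polyadenylated RNA of Tu212, an epithelial human line from a squamous carcinoma of the head and neck. Cells received the pEZ plasmid carrying PRMT5 (PRMT5 overexpression, or "with PRMT5") or the pEZ vector alone (vector control, or "with vector") for 48 h, and each condition has 1 library. Neither the plasmid's promoter nor whether the PRMT5 cells were 1 clone is given in the labels.

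Spliceosomal snRNPs are particles of a small nuclear RNA and proteins that recognise splice sites and catalyse the removal of introns. Each of the U1, U2, U4 and U5 particles is built on a ring of Sm proteins, while U6 carries a ring of the related LSm proteins. PRMT5, with WDR77 and CLNS1A, places symmetric dimethyl marks on arginines in the tails of the Sm proteins SmB, SmD1 and SmD3 and of LSm4, and the SMN complex then loads the Sm proteins onto the RNA. These marks are on protein, so the libraries measured the transcripts of the substrates and not their methylation.

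Reads assigned to genes numbered 19908258 with PRMT5 overexpression and 14119997 in the vector control. Levels are given as CPM, the reads of a gene per 1000000 assigned reads after scaling. Ratios are log2 values, PRMT5 overexpression over vector control, and are called the log2 ratio. Intervals are 95% Clopper-Pearson intervals of the reads and cover counting error only. With 1 library per group no difference has a replicate check, no test was possible, and differences are those between these libraries. In bulk RNA, fewer cells with a transcript and less of it per cell cannot be told apart. The epithelial and squamous markers summed to 10057 CPM in the PRMT5 overexpression library and 9186 CPM in the vector control, with 0 of 9 markers at 0. Fibroblast markers summed to 81.2 and 98.5 CPM, of which COL1A1 gave 79.0 and 92.6 CPM, leukocyte markers to 1.01 and 1.82 CPM and endothelial markers to 4.46 and 5.96 CPM, in the same order. Past the floor of 10 reads were 5 of 9 fibroblast, 1 of 8 leukocyte and 2 of 5 endothelial markers, and FAP, CD3D, MS4A1, CDH5 and KDR were at 0 in both libraries. Their part in the results was not tested.

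PRMT5 itself had 5770 reads in the PRMT5 overexpression library and 2068 in the vector control, or 293 CPM with PRMT5 and 145 CPM with vector. The log2 ratio came to 1.01 (interval 0.94 to 1.09). The library labelled as overexpressing thus held more transcript of the targeted gene.

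The transcripts of the snRNP protein genes differed little beside this. Of 51 genes, 50 had 10 or more reads in at least 1 library, and their lowest count in either library was 92. Among these 50, 0 genes were higher by 1.5-fold or more under PRMT5 overexpression and 0 were lower by as much. Of all 17777 genes past the same floor of 10 reads, 7.06% were higher and 5.33% lower by that factor, and 2.9% and 1.94% by 2-fold. Members are well read, and of the 13282 genes averaging at least 50 reads over both libraries, called well-read below, 2.7% were higher and 2.42% lower by 1.5-fold, and 0.798% and 0.806% by 2-fold. At such shares a list of this size is expected to hold few genes past 1.5-fold, so the count of 0 does not set the snRNP genes apart.

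Their median log2 ratio was 0.03, against 0.00 over all genes tested and -0.01 over the well-read genes. Of the 50 genes, 30 were above 0 and 20 below, which is 60% above 0 where 48.8% of the well-read genes were. The lowest value was -0.51, for SNRPA, and the highest 0.35, for LSM4. For 48 of the 50 genes the whole counting interval lay within 1.5-fold in either direction, and for all 50 it lay within 2-fold. The exceptions at 1.5-fold were SNRPA and the thinly read U2AF1L4. Together the 50 genes took 0.524% of all reads in the PRMT5 overexpression library and 0.519% in the vector control.

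**Figure D1:**
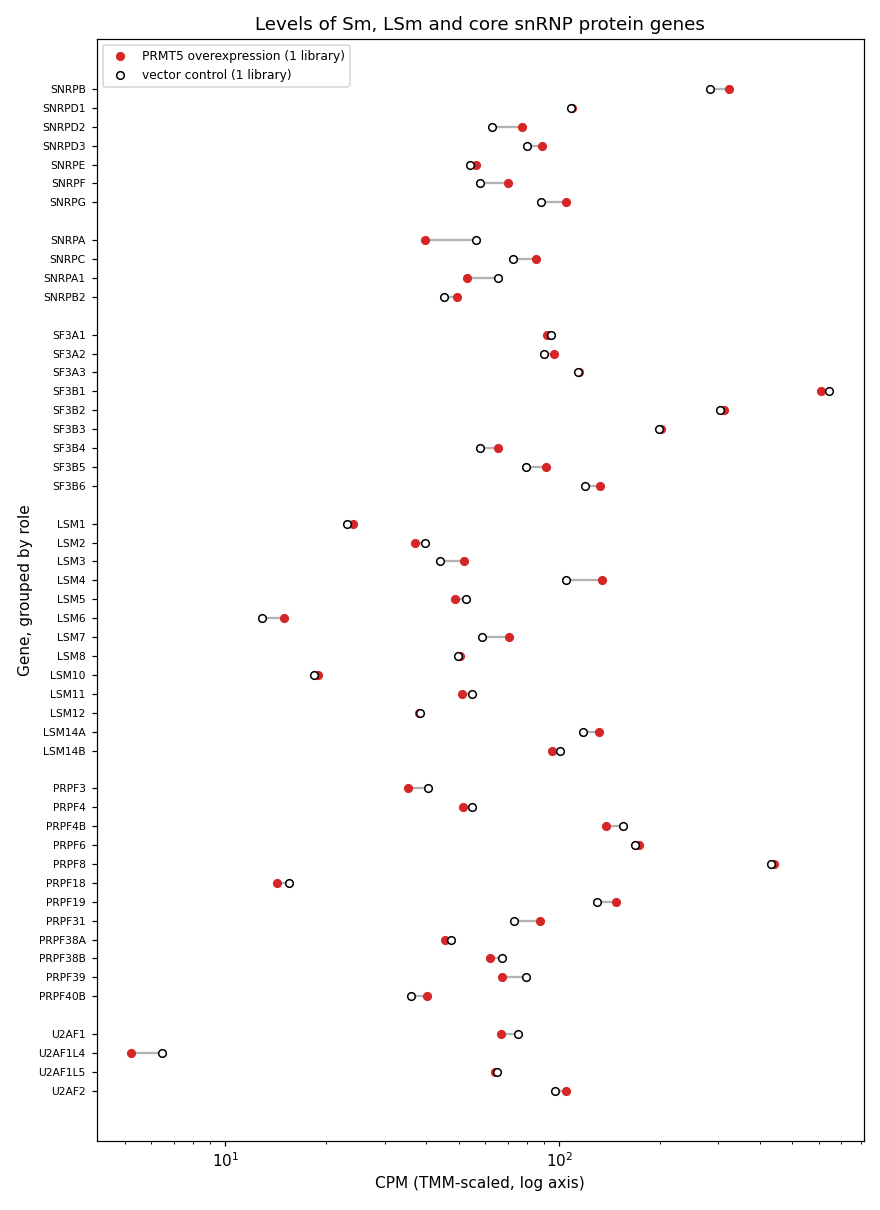
Level of 49 measured genes in CPM (log axis), with filled red points for the PRMT5 overexpression library and open points for the vector control library, grouped by role from the Sm ring at the top to U2AF at the bottom. Levels span from U2AF1L4, at 5.23 and 6.45 CPM in that order, to SF3B1, at 608 and 642 CPM, and the points of each pair lie close together.

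**Figure D2:**
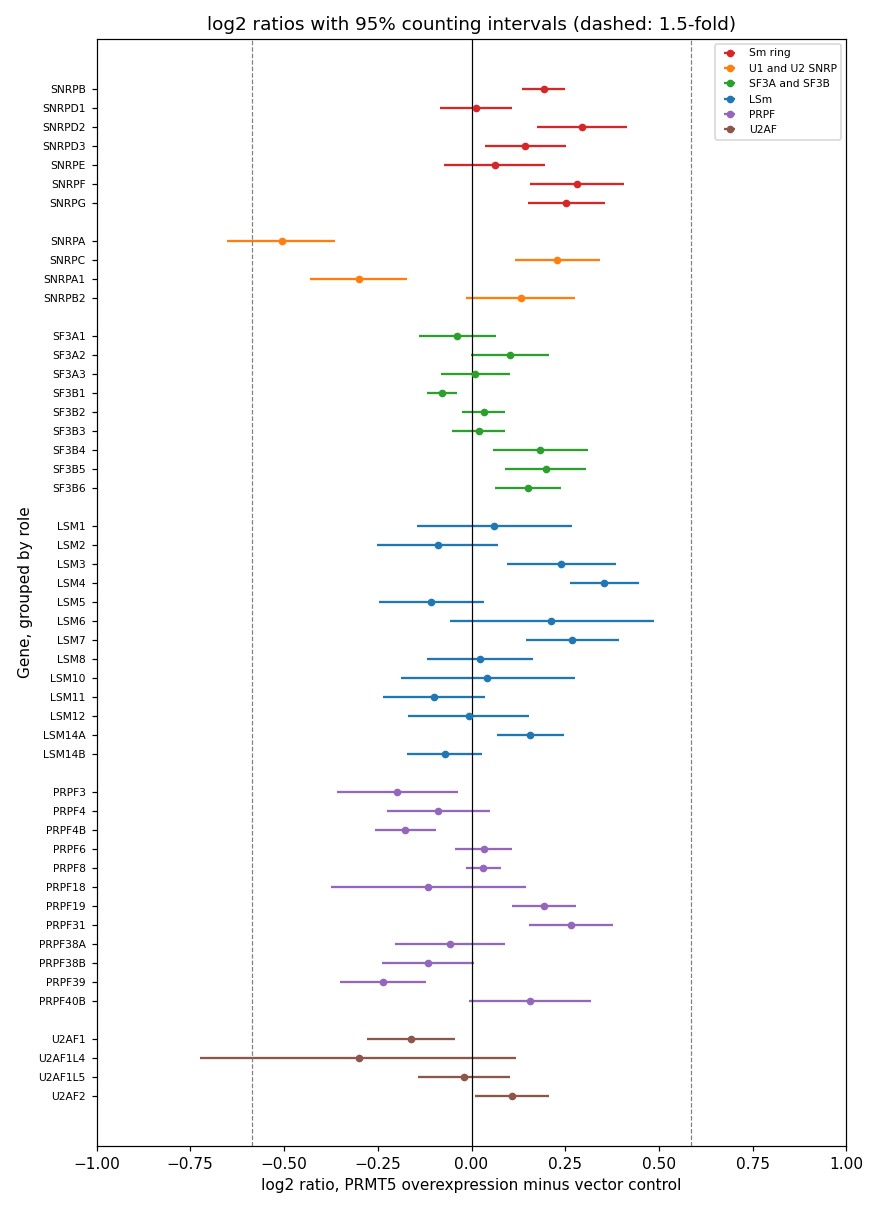
log2 ratio of 49 measured genes, PRMT5 overexpression minus vector control, with its 95% counting interval and dashed lines at 1.5-fold. No point lies past a dashed line, and the intervals of SNRPA and U2AF1L4 cross the lower one.

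The sequences around the starts of many of these genes share a short feature that the naming rule did not use. RefSeq promoter windows (GRCh38.p14, from 250 bases before to 50 bases after each start) were matched by symbol for 41 of the 51 genes. The letters CCGGAAG, the core of sites bound by ETS family transcription factors, occurred on either strand in 18 of the 41 genes, or 43.9%. They occurred in 21.3% of 11140 tested genes with a window and in 12.2% of all 27305 genes with one. Below, for each Sm ring, U1 and U2 SNRP gene with a match before a RefSeq start, is the match nearest to such a start, shown because they let the shared letters be compared across the family. Each is written 5′ to 3′ on the gene's strand, with the match in capitals, as CCGGAAG or its reverse complement CTTCCGG.
SNRPB: tgagctggaCCGGAAGtaggtttct
SNRPD2: tccatgcccCTTCCGGatgtaggca
SNRPE: ttctttattCCGGAAGttgctctca
SNRPG: tcatttcttCTTCCGGtccgaggtc
SNRPC: tacgctcttCCGGAAGcaccgacaa
SNRPA1: gcgccacgaCTTCCGGcaagaacgc
SNRPB2: gctacgttgCTTCCGGtgcctggct

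These stretches lie at chr20:2470815-2470839 on the minus strand for SNRPB, chr19:45692364-45692388 (minus) for SNRPD2, chr1:203861597-203861621 (plus) for SNRPE and chr2:70293493-70293517 (minus) for SNRPG. Those of the U1 and U2 genes lie at chr6:34757285-34757309 (plus) for SNRPC, chr15:101295346-101295370 (minus) for SNRPA1 and chr20:16729995-16730019 (plus) for SNRPB2. The match begins 22 bases before the RefSeq start in SNRPB2, 41 in SNRPB, 113 in SNRPA1, 211 in SNRPC and 241 in SNRPE. For SNRPG and SNRPD2, which have 3 RefSeq windows each, it begins 50 and 63 bases before the nearest of these starts. The gene starts in the deposited table, which match GENCODE release 29, lie elsewhere. Against them 5 of the 7 matches begin inside the gene, by 3 bases in SNRPE, 23 in SNRPB, 43 in SNRPB2, 190 in SNRPD2 and 263 in SNRPG, and those of SNRPA1 and SNRPC begin 79 and 112 bases before the gene. In SNRPC the forms of both strands overlap. Genes with the letters had a median log2 ratio of 0.08 (18 genes) and measured genes without them 0.01 (22 genes). Among those printed, SNRPD2 was at 0.29 and SNRPA1 at -0.30, so genes on both sides of 0 hold the letters.

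Another 4 motifs were searched on both strands of the same windows. The E-box CACGTG, bound by MYC and related factors, was in 1 of 41 genes, SF3B1, against 12.5% of tested genes. The GC box GGGCGG was in 63.4% of the 41 genes and in 75.8% of tested genes. CTCGCGAGA was in 1 gene, LSM3, against 1.57% of tested genes. GCGCATGCG, the core of sites bound by NRF1, was in 3 genes, LSM7, U2AF1 and U2AF1L4, or 7.32%, against 4.13% of tested genes. All 5 motifs were picked with the ratios known, a match is a run of letters and not a bound site, and absence of a match concerns only these windows.

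The Sm ring genes encode the proteins that close around the RNA of each particle. All 7 measured members lay above 0 (median 0.19, range 0.01 to 0.29), as did 48.8% of the well-read genes. SNRPB, which encodes SmB and SmB′, was the best read, at 323 CPM with PRMT5 and 282 CPM with vector. The log2 ratio came to 0.19 (interval 0.14 to 0.25). SNRPD3 (SmD3) had 88.6 CPM with PRMT5, against 80.2 CPM with vector (log2 ratio 0.14, interval 0.04 to 0.25). The other gene whose product carries the methylated tail, SNRPD1 (SmD1), was at nearly the same level in both libraries, at 109 CPM with PRMT5 and 108 CPM with vector. This log2 ratio of 0.01 had an interval of -0.08 to 0.11 and turned to -0.02 when libraries were scaled by total count alone. The genes of the known Sm substrates of PRMT5 thus lay in the lower part and the middle of the ring's range.

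The largest log2 ratios of the ring belonged to genes whose products are not known for the methylated tails. SNRPD2 (SmD2) had 77.3 CPM with PRMT5 and 63.0 CPM with vector (log2 ratio 0.29, interval 0.18 to 0.42). It shares 54 exon bases with QPCTL on the opposite strand. Summed with QPCTL, SNRPD2 was at 0.19, near the 0.19 of SNRPB alone. Such sums count all reads of the genes, not only those on shared bases. SNRPF (SmF) stood at 70.1 CPM with PRMT5, against 57.7 CPM with vector (log2 ratio 0.28). SNRPG (SmG) stood at 105 CPM with PRMT5 and 88.1 CPM with vector (log2 ratio 0.25). SNRPE (SmE) differed least among these, at 56.2 CPM with PRMT5 and 53.9 CPM with vector. Its log2 ratio of 0.06 had an interval of -0.07 to 0.20, which holds 0 as that of SNRPD1 does. Reads of the 7 genes summed to 829 CPM with PRMT5 and 733 CPM with vector (log2 ratio 0.18, interval 0.14 to 0.21). None of the 7 reached a log2 ratio of 0.32.

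Per kilobase of merged exon length, SNRPB was far above the rest of the ring, at 253 CPM per kilobase in PRMT5 overexpression and 221 in the vector control. SNRPG followed at 58.5 and 49.1, then SNRPD2 at 48.0 and 39.2, SNRPE at 38.1 and 36.5, SNRPD3 at 34.8 and 31.5, SNRPF at 23.0 and 18.97, and SNRPD1 at 22.2 and 22.0 CPM per kilobase, in the same order of libraries. SNRPF and SNRPD1 changed places between the libraries, and the rest kept their order. Merged length counts rarely used exons too, which lowers the per-kilobase value of a gene such as SNRPD1, with 4909 bases. Deposited FPKM values gave another order below SNRPB. By FPKM, SNRPD3 came next, at 27.7 in PRMT5 overexpression and 25.5 in the vector control, ahead of SNRPG at 27.4 and 23.5.

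SNRPN encodes SmN, a close relative of SmB that is expressed from the paternal allele and best known in brain. It had 0 reads in both libraries, and 0 reads allow up to 3, or 0.152 CPM with PRMT5 and 0.210 CPM with vector. It shares 814 exon bases on the same strand with SNURF, which was also at 0 in both libraries. How reads on shared bases were assigned is not stated in the sources at hand, so the level of SNRPN is stated only as deposited.

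Reads of some Sm genes can be confused with those of processed pseudogenes. SNRPEP4 had 286 reads in PRMT5 overexpression and 103 in the vector control (log2 ratio 1.00, interval 0.68 to 1.35). Of the tested 50-base stretches of SNRPE, 18.5% occur in transcripts of other genes, first among them SNRPEP4. Summed with its 9 pseudogenes, SNRPE had a log2 ratio of 0.19 in place of 0.06. SNRPG summed with its 20 pseudogenes was at 0.27, close to its value alone. Of 67 pseudogenes with a member's name, 6 had 10 or more reads.

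Among the genes of SNRP proteins specific to the U1 and U2 particles, SNRPA and SNRPA1 were lower. SNRPC was higher, and SNRPB2 lay above 0 with an interval that holds 0. SNRPA, the U1-A protein that binds a stem-loop of U1 RNA, had 780 reads in PRMT5 overexpression and 802 in the vector control, although the PRMT5 overexpression library is 1.41 times as deep. This is 39.6 CPM with PRMT5, against 56.2 CPM with vector, or 1.42-fold lower (log2 ratio -0.51, interval -0.65 to -0.36). SNRPA was the single member with a log2 ratio of -0.32 or less, where 12.5% of all tested genes and 8.09% of the well-read genes were. Only 3.24% of well-read genes had a lower log2 ratio. SNRPA (ENSG00000077312) spans bases 40750637 to 40765389 of chromosome 19 (GRCh38, plus strand) and shares 89 exon bases with C19orf54 on the opposite strand. Summed with it, SNRPA stood at -0.45.

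SNRPA1, the U2-A′ protein, was lower too, at 53.1 CPM with PRMT5 and 65.4 CPM with vector (log2 ratio -0.30, interval -0.43 to -0.17). SNRPB2, the U2-B′′ protein that binds U2 RNA together with U2-A′, had 49.3 CPM with PRMT5, against 45.0 CPM with vector, a log2 ratio of 0.13 whose interval of -0.01 to 0.28 holds 0. The genes of these partners thus lay on opposite sides of 0. SNRPC, the U1-C protein that helps U1 recognise the 5′ splice site, had 85.0 CPM with PRMT5, against 72.6 CPM with vector (log2 ratio 0.23, interval 0.12 to 0.34).

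SF3A and SF3B are the complexes of the U2 particle that hold it at the branch point of the intron. Their 9 genes had a median log2 ratio of 0.03, with 7 above 0 and 2 below. SF3B1, the large scaffold that contacts the branch point and is mutated in blood cancers, was the best read member of all, at 608 CPM with PRMT5 and 642 CPM with vector. The log2 ratio came to -0.08, in a narrow interval (-0.12 to -0.04). The scaffold partner SF3B3 had 202 CPM with PRMT5 and 199 CPM with vector (log2 ratio 0.02), and SF3B2 311 CPM with PRMT5 and 304 CPM with vector (log2 ratio 0.03). The large subunits therefore stood within 1.06-fold of the vector control.

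Small SF3B subunits had the higher values of this group. SF3B5 was at 91.5 CPM with PRMT5 and 79.7 CPM with vector (log2 ratio 0.20, interval 0.09 to 0.31). SF3B4 and SF3B6, RNA-binding subunits that lie near the branch point, had log2 ratios of 0.18 and 0.15. The SF3A genes lay near 0, with SF3A1 at -0.04, SF3A2 at 0.10 and SF3A3 at 0.01. Reads summed over the 9 genes gave 0.01 (interval -0.01 to 0.04).

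The LSm genes had a median log2 ratio of 0.04 over 13 members, with 8 above 0 and 5 below. LSM4, whose protein carries an arginine and glycine-rich tail methylated by PRMT5, had the highest log2 ratio of all members. It had 2640 reads in PRMT5 overexpression and 1494 in the vector control, or 134 CPM with PRMT5 and 105 CPM with vector. The level was 1.28-fold higher (log2 ratio 0.35, interval 0.26 to 0.45). LSM4 was the single member with a log2 ratio of 0.32 or more, where 14.4% of all tested genes and 7.73% of the well-read genes were. LSM4 (ENSG00000130520) spans bases 18306230 to 18323274 of chromosome 19 (GRCh38, minus strand), and no gene with 10 or more reads overlaps its exons.

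LSM2 to LSM8 form the ring that binds the end of U6 RNA, and their values lay on both sides of 0. LSM7 followed LSM4, at 70.6 CPM with PRMT5 and 58.6 CPM with vector (log2 ratio 0.27). LSM3 was at 0.24 and LSM6 at 0.21, LSM6 on few reads, 295 with PRMT5 and 184 with vector (interval -0.06 to 0.49). On the opposite strand, LSM3 shares 318 exon bases with XPC and LSM7 shares 6 with SPPL2B. Summed with these genes, LSM3 was at 0.10 and LSM7 at 0.16. The partners brought many reads, XPC 934 with PRMT5 and 696 with vector, and SPPL2B 940 and 676. LSM8, the subunit that marks the nuclear ring, was at 0.02. LSM2 had 37.1 CPM with PRMT5, against 39.5 CPM with vector (log2 ratio -0.09), and LSM5 had 48.7 CPM with PRMT5, against 52.5 CPM with vector (log2 ratio -0.11), the lowest of the family. LSM1, which replaces LSM8 in the cytoplasmic ring that promotes decapping of mRNA, had 24.1 CPM with PRMT5, against 23.1 CPM with vector (log2 ratio 0.06). Summed with its exon-sharing genes BAG4 and AC084024.3, LSM1 was at -0.17. BAG4 shares 198 exon bases and had more reads than LSM1, 837 with PRMT5 and 739 with vector, against 476 and 330.

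LSM10 and LSM11 stand in for SmD1 and SmD2 in the U7 particle, which processes the ends of replication-dependent histone mRNAs. LSM10 had 18.9 CPM with PRMT5 and 18.4 CPM with vector, and LSM11 51.0 CPM with PRMT5 and 54.6 CPM with vector, so that their log2 ratios of 0.04 and -0.10 had intervals that hold 0. LSM14A and LSM14B, larger proteins of P-bodies, were at 0.16 and -0.07. LSM12 was at -0.01 and shares 22.1% of its tested stretches with other transcripts, chiefly its pseudogene LSM12P1, which had 643 reads with PRMT5 and 462 with vector. LSM12 itself had 751 reads with PRMT5 and 546 with vector.

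Genes of the PRPF family, named after yeast precursor RNA processing factors, had a median log2 ratio of -0.06, with 5 of 13 above 0. PRPF8, the central U5 scaffold that cradles the catalytic RNA, had 441 CPM with PRMT5 and 431 CPM with vector (log2 ratio 0.03, interval -0.02 to 0.08). PRPF6, a bridge between U5 and U4/U6, was at 0.03 as well. PRPF31, which joins U4 to U5 and underlies a form of retinal degeneration when mutated, had the highest value, at 87.9 CPM with PRMT5, against 73.1 CPM with vector. The log2 ratio came to 0.27 (interval 0.15 to 0.38). On the opposite strand PRPF31 shares 589 exon bases with AC245052.4 and 266 with TFPT, and their sum was at 0.23. PRPF19, the ubiquitin ligase at the heart of the complex of that name, had 148 CPM with PRMT5 and 129 CPM with vector (log2 ratio 0.19).

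At the lower end, PRPF39, a U1-associated protein, had 67.6 CPM with PRMT5 and 79.6 CPM with vector (log2 ratio -0.24, interval -0.35 to -0.12). It shares 653 exon bases with FKBP3 on the opposite strand, and the sum of both was at -0.01. FKBP3 had 1973 reads with PRMT5 and 1280 with vector, against 1332 and 1135 for PRPF39. PRPF3 and PRPF4, partners in the U4/U6 particle, were at -0.20 and -0.09, and the kinase PRPF4B, which phosphorylates splicing factors, was at -0.18. PRPF4, summed with the overlapping CDC26, was at 0.03. Further members of the family were PRPF18, PRPF38A, PRPF38B and PRPF40B, with log2 ratios of -0.12, -0.06, -0.12 and 0.16. PRPF40B shares 2643 exon bases with FMNL3 and 1959 with FAM186B on the opposite strand, and their sum was at 0.12.

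U2AF marks the 3′ splice site, with a large subunit on the polypyrimidine tract and a small subunit on the AG dinucleotide. The large subunit gene U2AF2 had 105 CPM with PRMT5 and 97.1 CPM with vector (log2 ratio 0.11, interval 0.01 to 0.21). U2AF1, the small subunit, was at -0.16 and its copy U2AF1L5 at -0.02, but 98.9% of the tested stretches of U2AF1 occur in other transcripts, so their separate levels are uncertain. Summed, they had 2588 reads in PRMT5 overexpression and 1999 in the vector control (log2 ratio -0.09, interval -0.18 to -0.01). U2AF1L4, a thinly read relative, had 103 reads with PRMT5 and 92 with vector (log2 ratio -0.30, interval -0.72 to 0.12). Summed with PSENEN and AD000671.2, which share its exon bases, it was at 0.17. Most reads of that sum were of PSENEN, 610 with PRMT5 and 375 with vector.

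**Figure D3:**
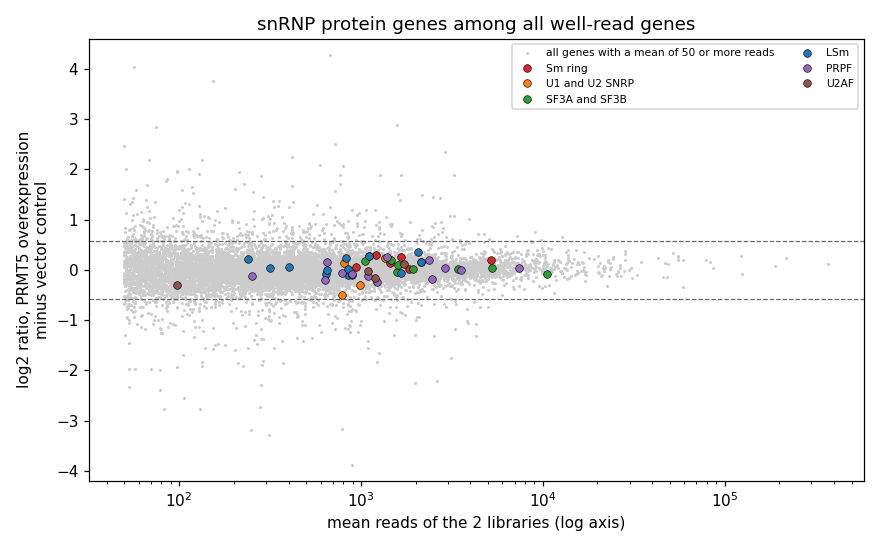
log2 ratio (PRMT5 overexpression minus vector control) against the mean reads of both libraries (log axis) for the 13282 well-read genes in grey, with the 50 snRNP protein genes coloured by role and dashed lines at 1.5-fold. All coloured points lie between the dashed lines, from SNRPA at -0.51 to LSM4 at 0.35.

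Gene length moved with the log2 ratio in these libraries. Across the 50 members, shorter genes tended to have higher values, with Spearman's rho of -0.42 and Pearson's r of -0.33 against log2 merged exon length. The 25 members of at most 3497 bases had a median log2 ratio of 0.14, with 19 above 0, and the 25 longer members -0.02, with 11 above 0. The same direction was present over all well-read genes, with a median of 0.04 for 4252 genes up to that length and -0.02 for 9016 longer genes, and rho was -0.14 over 13260 genes. The 7 Sm ring genes have a median length of 1795 bases. Well-read genes of at most that length, 1389 in number, had a median of 0.09, against 0.19 for the Sm ring. Of the 11 members of at most that length, ring genes among them, 10 were above 0, with a median of 0.19. Some ring genes are longer, up to 4909 bases for SNRPD1, and the 5911 well-read genes within the length range of the ring had a median of 0.01. SNRPD1 alone sets the top of that range, SNRPF being next at 3043 bases, so the range holds many lengths unlike those of most ring genes. SF3B4, SF3B5 and SF3B6 are short as well, while SNRPA, with 2361 bases, was low.

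GC content also moved with it. Members whose longest transcript had a GC content above 47.8% had a median log2 ratio of 0.10, and the other members -0.01. The corresponding medians of all well-read genes were 0.03 and -0.04. Across the 50 members rho was 0.32 for GC content and 0.22 for mean reads. Across 13260 genes it was 0.16 for GC content and 0.06 for mean reads. The part of length, composition and depth in the ratios was not tested. These are correlations across genes of the same libraries, and genes are not replicates.

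**Figure D4:**
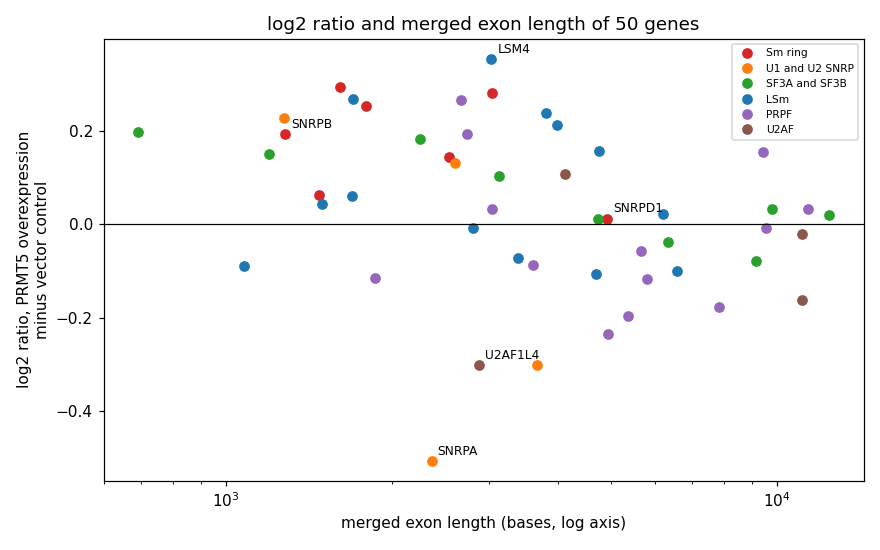
log2 ratio (PRMT5 overexpression minus vector control) of the 50 measured genes against merged exon length in bases (log axis), coloured by role. Genes up to 3497 bases have a median of 0.14 and longer genes of -0.02, with SNRPA and U2AF1L4 low among the shorter genes.

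snRNP proteins that the naming rule leaves out had values in a like range. Of 29 other snRNP proteins, 0 were past 1.5-fold in either direction, with a median log2 ratio of 0.04. SNRNP70, the U1 protein that contacts many regulators, was at 0.16, and the U5 helicase SNRNP200 at 0.12, its level being 622 CPM with PRMT5 and 571 CPM with vector. SNRNP40, a further U5 protein, was the lowest, at -0.32. The 26 genes of the Prp19 complex and of the catalytic helicases had a median of 0.02, again with 0 past 1.5-fold.

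The snRNP assembly and import list held 28 genes with a median log2 ratio of 0.02, and those past 1.5-fold were 2, PRMT5 itself and METTL16, both higher. Of all tested genes 7.06% were higher by 1.5-fold or more, and of the well-read genes 2.7%, so the count does not set this list apart. METTL16 encodes the enzyme that methylates an adenosine of U6 RNA at the site that pairs with the 5′ splice site. It had 1238 reads in PRMT5 overexpression and 453 in the vector control, or 62.8 CPM with PRMT5 and 31.8 CPM with vector (log2 ratio 0.98, interval 0.83 to 1.14). This gene spans bases 2405562 to 2511891 of chromosome 17 (GRCh38, minus strand), free of exon overlap with genes of 10 or more reads. SNUPN, which encodes the import adaptor snurportin, had 43.1 CPM with PRMT5, against 29.8 CPM with vector (log2 ratio 0.53, interval 0.36 to 0.70), and is named after its value was seen. The cofactors WDR77 and CLNS1A were at 0.19 and -0.05. SMN1 and SMN2, which cannot be told apart by most of their sequence, were at -0.08 and -0.20.

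Lists around the cytoplasmic LSm ring and the U7 particle were also examined. Of 8 measured decapping partners of LSM1 and LSM14, 1 was lower by 1.5-fold or more and 0 were higher, and their median was -0.08. Of all tested genes 5.33% were lower by as much, and of the well-read genes 2.42%. The lower partner was DCP2, the decapping enzyme itself, with 768 reads in PRMT5 overexpression and 1739 in the vector control. Its level was 39.0 CPM with PRMT5 and 122 CPM with vector, or 3.13-fold lower (log2 ratio -1.64, interval -1.77 to -1.52). DCP2 spans bases 112976702 to 113020970 of chromosome 5 (GRCh38, plus strand), likewise without such overlap. DCP1B had 0 reads in both libraries, and the 7 measured partners other than DCP2 lay between -0.15 and 0.14. The 10 histone processing partners of LSM10 and LSM11 had a median of 0.01 and 0 past 1.5-fold, with the stem-loop binding protein SLBP at 0.27 and ERI1, an exonuclease of histone mRNA, at -0.38.

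**Figure D5:**
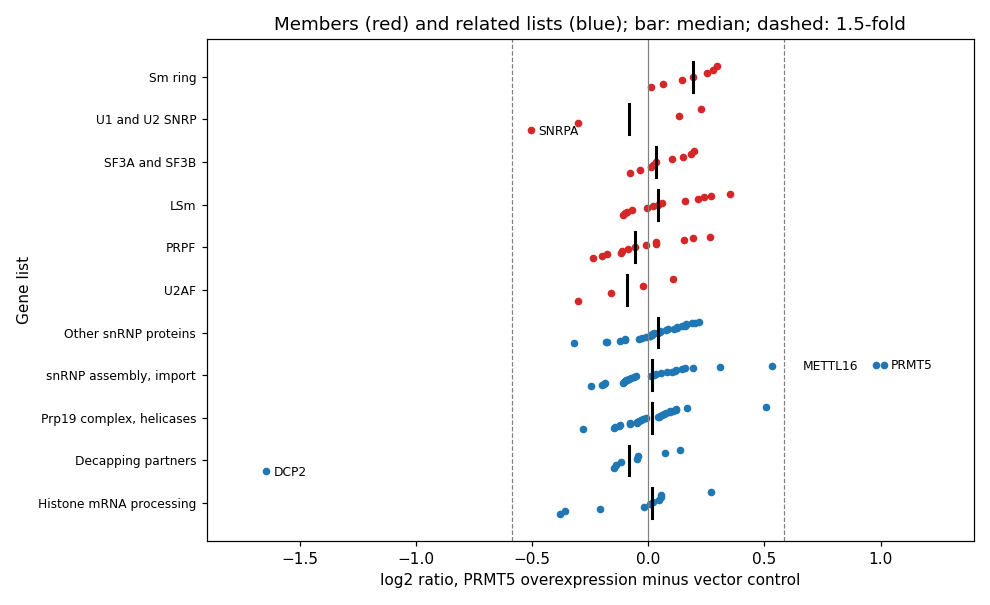
log2 ratio (PRMT5 overexpression minus vector control) of each gene in the 6 role groups of members (red) and 5 related lists (blue), with a black bar at each median and dashed lines at 1.5-fold. PRMT5 and METTL16 lie to the right of the dashed lines and DCP2 to the left, and all red points lie between them.

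The snRNAs themselves, which carry no poly(A) tail, were hardly present in this polyadenylated RNA. Of 1909 genes annotated as snRNA, 3 had 10 or more reads in at least 1 library, and all of them together held 400 reads in PRMT5 overexpression and 447 in the vector control. The RNA side of the particles was therefore not measured here.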

How the data were processed

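The authors' deposited table gave raw counts and FPKM for each gene in 1 library per group. Per the submitters' processing notes, CASAVA 1.8, HISAT2 2.1.0, StringTie 1.3.4b and edgeR were used with GRCh38 and hg38, without stated roles. The annotation behind the counts and whether they use strand are not given in the sources used here. FPKM values, as deposited by the authors, served only as an alternative. No per-sample column was left unused. Rows of a symbol were summed (221 symbols stood on several rows), scaled by TMM (edgeR 4.0.16, R 4.3.3; factors 0.99 for PRMT5 overexpression and 1.01 for vector control) and turned into log2 CPM with a prior count of 1. Genes needed 10 reads in at least 1 library. Count tests were not possible with 1 library per group. The computation of log2 ratios was checked on simulated counts with known fold changes.

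Start and end of all 51 member genes matched GENCODE release 29, from which merged exon lengths and exon-sharing genes with 10 or more reads were taken. Of the 50 measured members, 15 had such exon-sharing genes. Shared sequence is the share of 50-base stretches, every 10 bases of the longest transcript, found in transcripts of other genes. Members were named, except 1 whose own values are not reported here; genes of related lists were named when past 1.5-fold with a mean of 50 reads, with others added for context. Members and lists were chosen with earlier results of these data known. The alternatives tried were other prior counts (0.1 and 5), size factors from DESeq2 1.42.0, total counts, no floor or 50 reads, the highest row per symbol, FPKM with a pseudocount of 1, other thresholds and sums of overlapping genes. Python 3.11.15 with pandas 2.3.3, scipy 1.17.1 and matplotlib 3.10.9 was used.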

Additional observations from a re-analysis of the deposited data

How the results depend on the processing

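The counts of members past 1.5-fold, 0 higher and 0 lower, were also 0 under all alternatives run at that threshold and at 2-fold. With a threshold of 0.32 on the log2 scale there were 1 higher, LSM4, and 1 lower, SNRPA, so these counts depended on the threshold. The median of the members ranged between 0.00 with deposited FPKM plus a pseudocount of 1 and 0.06 with no floor on reads, against 0.03. With that pseudocount, which shrinks the ratios of low FPKM values, PRMT5 was at 0.931, just below its counting interval, METTL16 at 0.69 and DCP2 at -1.31. Without it, deposited FPKM gave 0.98 for PRMT5, 0.95 for METTL16 and -1.67 for DCP2, all within their intervals. Of 463 recalculated values of single members, 460 stayed within their counting intervals. The exceptions were LSM1 at -0.17, PRPF39 at -0.01 and U2AF1L4 at 0.17, each summed with exon-sharing genes that together held more reads. A change of sign occurred in 15 of these values. The median of the U2AF genes was 0.04 in such sums, against -0.09. FPKM without a pseudocount and the sums of U2AF1 with U2AF1L5 and of genes with their pseudogenes were chosen after seeing the data. No paired analysis was possible because only a single library stands on each side. Depth limits U2AF1L4 most among the members.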
